A study of Rattus norvegicus with 28 samples.

Results

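The histone genes of rat striatum were taken as the rows of the deposited expression table that are annotated as protein-coding and named Hist1 to Hist4, H1f, H2af or H3f. This gave 48 genes of 39538 rows, 35 of them replication-dependent histone genes (Hist) and 13 variant histone genes (H1f, H2af, H3f). Expression was measured by RNA sequencing in 28 libraries of the striatum of male rats. There were 8 wild-type naive (wt naive), 6 wild-type rats with a sciatic nerve crush (wt crush), 8 transgenic naive (TG naive) and 6 transgenic rats with the crush (TG crush). The TG rats carry ΔETorA, the form of human torsinA that lacks 1 glutamate and causes DYT-TOR1A dystonia, and the wt rats do not. The crush was made on the right side, and all samples, naive ones included, carry the time label 12 weeks after injury. The sources used here do not give the promoter of the transgene, the strain or the age. The series set out to find genes that differ between DYT-TOR1A and wt striatum, with and without the nerve injury.

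Histones package DNA into nucleosomes. A core of H2A, H2B, H3 and H4 carries the DNA, and the linker histone H1 binds where the DNA enters and leaves. Replication-dependent genes lie in clusters, are transcribed mainly while DNA is copied, and give mRNAs that usually end in a stem-loop in place of a poly(A) tail. Variant genes, such as those of H3.3, H2A.Z, macroH2A and H1.0, are transcribed outside S phase too and give polyadenylated mRNAs, so that cells that no longer divide, neurons among them, can renew their histones from them. The library kit named in the labels selects polyadenylated RNA, so the values of replication-dependent genes stand for the transcripts this selection kept.

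The human TOR1A transcript separated the genotypes. It lay between 102 and 144 reads per 1000000 reads assigned to genes (RPM) in the 14 TG libraries and at or below 0.972 RPM in the 14 wt libraries. Between 29151455 and 38407359 reads were assigned per library. Where a gene had no read, its level could have been up to 0.103 RPM in the shallowest library, for counting error only. All 15 markers of spiny projection neurons, the main neurons of the striatum, were detected in every group. Tissue makeup varied between libraries. In 5 of the 28 libraries (wt naive replicates 197, 199 and 202, TG naive replicate 190, TG crush replicate 220) Slc17a7, the vesicular glutamate transporter of cortical neurons, exceeded 20 RPM, and TG crush replicate 223 had the largest mitochondrial share of reads (18.5%). Each label gives a number of its own and says no more about separate animals, so p-values cover the spread among libraries. The labels do not tie libraries to the 2 sequencing runs, and an effect of the run was not tested. In whole tissue, fewer cells of a type and less RNA per cell cannot be told apart.

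Promoter sequences are shown for the 3 replication-dependent genes on which the values below turn. Hist3h2a and Hist1h2bh are the genes that passed the test in a comparison, and Hist1h1c gave more reads than any other gene of the class. The current RefSeq names are H2ac25, Hist1h2bq and H1f2. They come from RefSeq (GRCr8), 5′ to 3′ on the strand of the named gene, and end at its annotated start. Capitals mark matches to the CCAAT box (CCAAT, or ATTGG on the other strand) and to the octamer of histone promoters (ATTTGCAT, or ATGCAAAT on the other strand). The first is the whole stretch of 217 bases that lies between Hist3h2bb and Hist3h2a, which are transcribed away from each other (chr10:44233066-44233282, plus strand). The others are the 250 bases before Hist1h2bh (chr17:41869342-41869591, minus strand) and before Hist1h1c (chr17:41820454-41820703, minus strand).
Hist3h2a: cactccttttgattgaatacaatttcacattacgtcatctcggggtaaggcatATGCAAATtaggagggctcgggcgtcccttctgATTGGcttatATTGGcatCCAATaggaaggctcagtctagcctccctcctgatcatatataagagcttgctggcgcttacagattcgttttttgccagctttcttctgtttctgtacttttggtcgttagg
Hist1h2bh: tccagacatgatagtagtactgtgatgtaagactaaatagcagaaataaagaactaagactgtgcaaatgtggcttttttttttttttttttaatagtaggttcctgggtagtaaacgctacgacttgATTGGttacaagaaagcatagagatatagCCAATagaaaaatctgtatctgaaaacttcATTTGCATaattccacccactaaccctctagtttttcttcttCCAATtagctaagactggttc
Hist1h1c: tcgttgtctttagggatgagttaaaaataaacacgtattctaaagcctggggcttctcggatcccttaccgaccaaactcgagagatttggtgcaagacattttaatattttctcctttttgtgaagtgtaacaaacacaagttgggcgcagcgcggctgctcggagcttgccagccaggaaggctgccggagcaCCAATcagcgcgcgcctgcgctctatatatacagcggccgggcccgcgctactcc
The stretch of Hist3h2a holds an octamer 164 bases before the start and CCAAT boxes 131, 121 and 113 bases before it. That of Hist1h2bh holds an octamer 63 bases before the start and CCAAT boxes at 122, 93 and 21 bases. That of Hist1h1c holds a CCAAT box at 55 bases and no octamer.

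The same letters, and those of the TATA box, were searched in the promoters of all members. Of the 48 histone genes 44 had a promoter in the RefSeq table, which holds 27457 promoters in all. A CCAAT box on either strand stood within the 250 bases before the start in 30 of 32 replication-dependent genes (93.8%), in 7 of 12 variant genes (58.3%) and in 34.3% of all promoters. The TATA box (TATAAA, or TTTATA on the other strand) was found in 17 of 32 replication-dependent genes (53.1%), 2 of 12 variant genes (16.7%) and 13.1% of all promoters. For the octamer the numbers were 12 of 32 (37.5%), 1 of 12 (8.3%) and 1.5%. Within the class it stood before 6 of 11 H2B genes, 6 of 13 H2A genes and 0 of 5 H1 genes. Because neighbours that face away from each other share bases of their windows, 1 match can count for both. The octamer between Hist3h2bb and Hist3h2a does so. The numbers are thus of genes and not of separate sites. Genes with few or no reads held the motif too: a CCAAT box stood before 11 of 13 replication-dependent genes that passed the filter on low values and before 19 of 19 that did not. A match in a window is a description of its letters and no measure of binding.

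Most histone reads in striatum came from variant genes. Their sum averaged 425 RPM over the 28 libraries, 73.5% of all reads of the 48 genes, and that of the replication-dependent genes averaged 153 RPM, or 26.5%. A few genes made up each sum. Hist1h1c alone gave 46.3% of the replication-dependent reads and, with Hist1h2bh and Hist3h2a, 73.9%. H3f3b gave 28.4% of the variant reads and, with H2afy and H1f0, 61.8%. Of the replication-dependent genes 10 averaged at least 1 RPM and 25 less, with 7 at no read in any library. Each of those 7 genes overlaps another row on its own strand. How reads in such overlaps were counted is not stated in the sources used here. A lack of reads in them therefore need not mean a lack of transcripts. Of the variant genes 10 averaged at least 1 RPM and 3 less. An RPM is a share of reads and grows with transcript length, so it does not rank genes by number of transcripts.

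**Figure D1:**
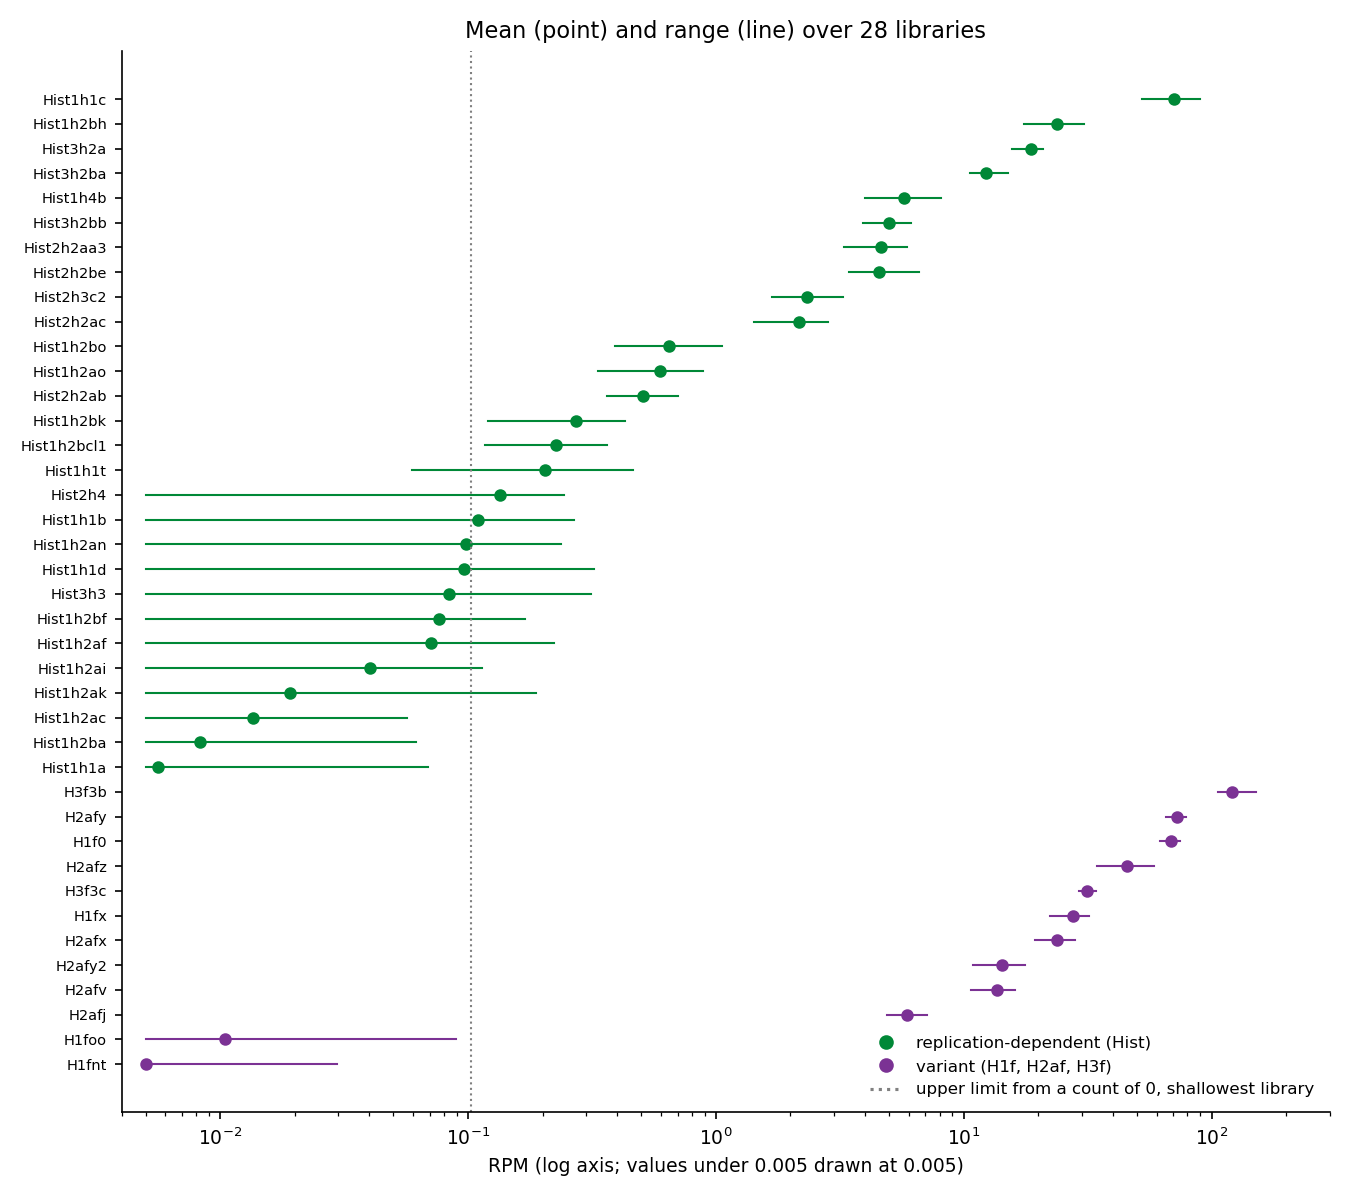
RPM (log axis) of the 40 histone genes with a read, as mean (point) and range (line) over 28 libraries, replication-dependent genes in green and variant genes in purple. The dotted line is the limit that a count of 0 allows in the shallowest library. The 10 most abundant genes of each class lie above 1 RPM, and the replication-dependent genes trail off below the limit.

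Among the linker histones, Hist1h1c (H1.2; chromosome 17, 43638938 to 43640445, Rnor_6.0, minus strand) averaged 70.8 RPM and H1f0 (H1.0, the linker histone of cells that have stopped dividing; chromosome 7) averaged 68.9 RPM. H1fx (H1.10) averaged 27.7 RPM. The other H1 genes of the replication-dependent class, Hist1h1t, Hist1h1b, Hist1h1d and Hist1h1a, lay between 0.00562 and 0.205 RPM. The class was set by gene name (Hist), so it also holds germline genes such as Hist1h1t. Both leading H1 genes lack introns, so introns do not add to the gene span by which their deposited values are divided. Per kilobase of that span Hist1h1c averaged 46.9 RPKM and H1f0 37.0 RPKM. The selection of polyadenylated RNA may have kept unlike shares of their transcripts, and Hist1h1c overlaps another row on the other strand. These values therefore do not rank the genes by number of transcripts.

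Among the core histones, H3f3b, which encodes the replacement histone H3.3 (chromosome 10, 104573666 to 104575890), had the most reads, 121 RPM. A related row, H3f3c, averaged 31.4 RPM and is a pseudogene in the current RefSeq annotation. The macroH2A genes H2afy and H2afy2, whose histones carry a large extra domain and mark silent chromatin, averaged 72.9 and 14.3 RPM. The H2A.Z genes H2afz and H2afv averaged 45.8 and 13.6 RPM, and H2afx, whose product is phosphorylated at DNA breaks, averaged 23.8 RPM. H2afj, an H2A variant, averaged 5.91 RPM. Its reads were equal in number to those of LOC103690002, a row outside the rule that is also described as H2A.J, in 27 of 28 libraries, so the 2 copies cannot be told apart. A further 46.4 RPM lay in LOC100361558, described as H3.3B-like, and in all 23 rows described as histones fell outside the rule.

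The replication-dependent genes lie at 4 places in Rnor_6.0. The large cluster on chromosome 17 holds 24 of the 35 genes and gave 67.1% of their reads, 5 of its genes passing the filter on low values. The Hist3 cluster on chromosome 10 (45289741 to 45305106) holds 4 genes and gave 23.5%. The Hist2 cluster on chromosome 2 (198359754 to 198418075) holds 6 genes and gave 9.36%, and the remaining gene, Hist2h4a on chromosome 4, had no read. Hist1h2bh, an H2B gene of the large cluster, averaged 23.7 RPM and Hist1h4b, an H4 gene there, 5.76 RPM. The annotated span of Hist1h2bh is 9387 bases, over which it averaged 2.52 RPKM. Where in that span its reads lie cannot be told from the deposited values. In the Hist2 cluster the H2A genes Hist2h2aa3 and Hist2h2ac averaged 4.62 and 2.16 RPM, the H2B gene Hist2h2be 4.56 RPM and the H3 gene Hist2h3c2 2.33 RPM. The annotated span of Hist2h3c2 overlaps Hist2h4 on the other strand, and Hist1h1c overlaps LOC102548682 (0.699 RPM) on the other strand. Among the variant genes H2afy2 overlaps Aifm2 and LOC108353239 on the other strand. Whether the counting used strand is not stated in the sources used here, so these values are uncertain.

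The Hist3 cluster has 3 expressed genes. Hist3h2a, an H2A gene (45297603 to 45299155, plus strand), averaged 18.6 RPM, Hist3h2ba, an H2B gene upstream of it (45289741 to 45290370, plus strand), 12.2 RPM, and Hist3h2bb, the H2B gene that shares the stretch printed above with Hist3h2a (45296638 to 45297385, minus strand), 4.99 RPM. Hist3h3, an H3 gene of the germline, averaged 0.0835 RPM. Per kilobase the order of the H2A and H2B genes differed: Hist3h2ba averaged 19.4 RPKM, Hist3h2a 12.0 RPKM and Hist3h2bb 6.67 RPKM. Hist3h2a and Hist1h2bh overlap no other row of the table.

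**Figure D2:**
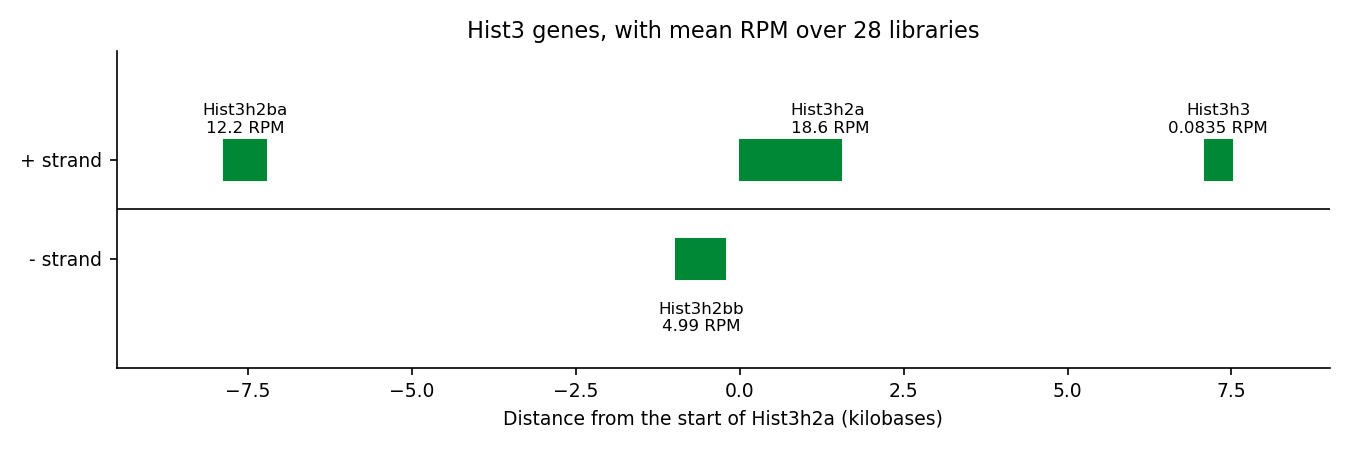
The 4 Hist3 genes on chromosome 10 by distance from the start of Hist3h2a (kilobases), drawn to scale on the plus and minus strands with the mean RPM over 28 libraries. Hist3h2bb (4.99 RPM) and Hist3h2a (18.6 RPM) start 217 bases apart on opposite strands.

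A pair of genes that share such a stretch need not have like read numbers. Besides Hist3h2bb and Hist3h2a, Hist2h2ac and Hist2h2be face away from each other across 101 bases, at 2.16 and 4.56 RPM. Hist1h2aa and Hist1h2ba do so across 264 bases, at 0 and 0.00831 RPM. The latter pair encodes histones of the testis. Other germline histones were near 0 as well: Hist1h1t (testis H1) averaged 0.205 RPM, H1foo (oocyte H1) 0.0105 RPM, H1fnt (sperm H1) 0.00106 RPM with 1 read in all, and H2afb3 had no read. The limit of 0.103 RPM, for counting error only, applies to those without a read in any library, Hist1h2aa and H2afb3. Hist1h2aa also overlaps another row on its own strand.

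How steady a gene was within a group differed between members. Over the 23 genes that passed the filter (RPM of at least 0.5 in at least 6 libraries), the coefficient of variation within groups ran from 4.52% for H1f0 to 24.0% for Hist1h2bo, with a median of 10.5%. Hist3h2a, at 4.72%, was the third lowest, and its 532 to 764 reads per library alone give 3.97%. Hist1h2bh had a value of 10.3%, against 3.52% from counting. Of the less abundant genes, Hist1h2bo had 24.0% against 21.4% from counting, Hist2h2be 19.2% against 8.02%, and Hist2h2ab 17.0% against 24.1%, so its spread was no larger than counting alone gives.

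Nerve crush in TG rats was the comparison in which histone genes passed the test. Hist1h2bh and Hist3h2a, an H2B and an H2A gene, were lower in TG crush than in TG naive rats, and no histone gene was higher. Of the 13 replication-dependent genes tested, 2 fell and 11 did not pass. Of the 10 variant genes tested, none passed. These calls are of limma on log2 (RPM + 0.5), at a Benjamini-Hochberg adjusted p under 0.05 over all 18222 genes tested, of which 3.08% were called in this comparison. The 13 and 10 genes are those that passed the filter on low values, out of 35 and 13.

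Hist1h2bh ranged from 23.5 to 30.5 RPM with a median of 26.6 in TG naive rats, and from 17.5 to 26.6 with a median of 20.54 in TG crush rats. The groups overlapped: 4 of the 6 TG crush libraries lay below the lowest TG naive library, and replicates 223 and 226 lay within the naive range. The mean fell by 21.5%, from 27.4 ± 2.31 (SD, n = 8) to 21.5 ± 3.62 RPM (SD, n = 6), a log2 change of -0.35 (SE 0.08, limma adjusted p = 0.0121). In wt rats Hist1h2bh ranged from 20.9 to 26.6 RPM, with a median of 23.3, when naive and from 19.0 to 23.5, with a median of 21.3, after crush. The wt groups overlapped, at a log2 change of -0.13 (SE 0.08, limma adjusted p = 0.333). The TG naive group had the highest mean of the 4, with a log2 difference from wt naive of 0.22 (SE 0.07, limma adjusted p = 0.769). The difference between the crush effects in TG and wt rats did not pass (-0.22, SE 0.11, limma adjusted p = 0.658).

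Hist3h2a ranged from 17.6 to 19.9 RPM with a median of 19.4 in TG naive rats, and from 15.7 to 17.7 with a median of 17.1 in TG crush rats. In 5 of 6 TG crush libraries it lay below the lowest TG naive library, and replicate 226 lay just inside the naive range. The mean fell by 11.7%, from 19.0 ± 0.852 (SD, n = 8) to 16.8 ± 0.804 RPM (SD, n = 6). The log2 change was -0.17 (SE 0.04, limma adjusted p = 0.0276), with p = 0.000999 in the two-sided exact permutation test over libraries, which can go no lower than 0.000666 here. In wt rats it ranged from 17.3 to 19.8 RPM, with a median of 18.7, when naive and from 18.5 to 20.9, with a median of 19.8, after crush. This difference had the opposite sign, 0.09 on the log2 scale (SE 0.04), and did not pass in limma (adjusted p = 0.248; exact permutation p = 0.039, unadjusted). The difference between the crush effects in TG and wt rats was -0.26 (SE 0.06, limma adjusted p = 0.307) and did not pass. Hist3h2a was known from an earlier analysis of the same libraries to differ between the TG and wt crush groups. Its comparisons of crush with naive rats, and the difference between them, use the same crush libraries. Their p-values are thus no independent test.

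Both calls depended on which libraries entered. That of Hist1h2bh held in all 28 fits with a single library left out (limma adjusted p = 0.00191 to 0.0483). That of Hist3h2a was lost without TG naive replicate 189 (-0.17, limma adjusted p = 0.05002), TG crush replicate 219 (-0.16, adjusted p = 0.0650) or TG crush replicate 222 (-0.16, adjusted p = 0.0851). Without the 5 libraries with over 20 RPM of Slc17a7 neither gene passed, at -0.19 for Hist3h2a (limma adjusted p = 0.0525) and -0.34 for Hist1h2bh (adjusted p = 0.0789). With the TG groups fitted alone the adjusted p was 0.123 for Hist3h2a and 0.0801 for Hist1h2bh.

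**Figure D3:**
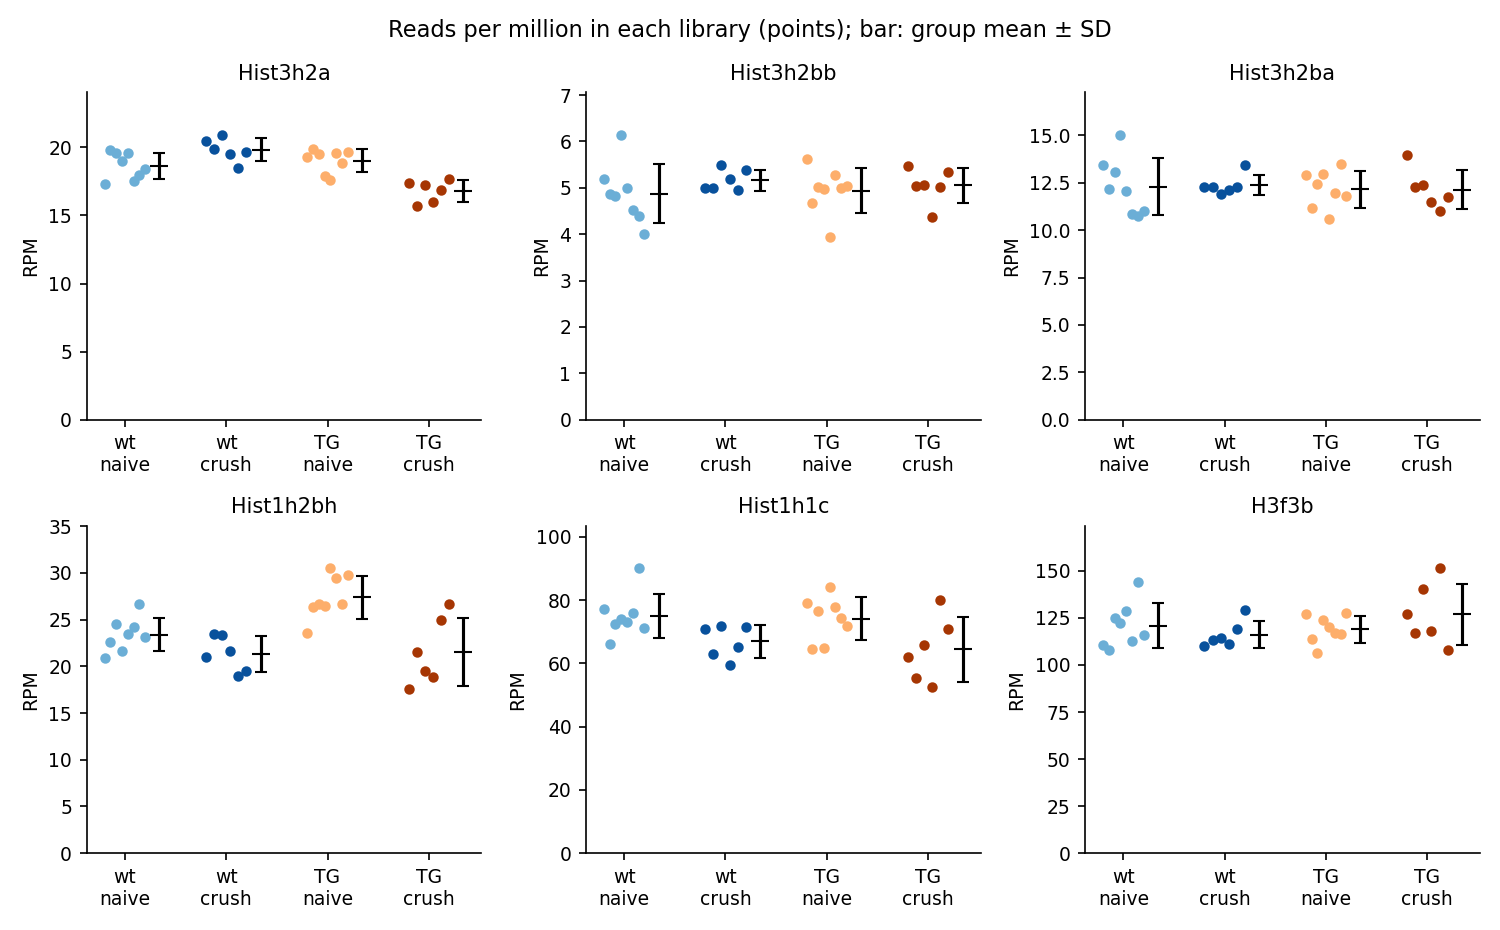
RPM of Hist3h2a, its cluster neighbours Hist3h2bb and Hist3h2ba, Hist1h2bh, Hist1h1c and H3f3b in each library (points), with the mean and SD of each group (bars). The 6 TG crush libraries of Hist3h2a lie between 15.7 and 17.7, below all 6 wt crush libraries, and the neighbours show no such step.

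The neighbours of Hist3h2a in its cluster did not pass. Hist3h2bb, which starts 217 bases away, had a log2 change of 0.03 (SE 0.07, limma adjusted p = 0.861) from TG naive to TG crush rats, and Hist3h2ba one of 0.00 (SE 0.07, adjusted p = 0.987). Hist3h2bb ranged from 3.93 to 5.62 RPM in TG naive and from 4.38 to 5.47 in TG crush rats. For Hist3h2ba the ranges were 10.6 to 13.5 and 11.03 to 13.9 RPM. The TG crush ranges of both genes lay largely within the naive ones.

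Other replication-dependent genes had negative values of like size after crush in TG rats without passing. The H2A genes Hist2h2aa3 and Hist2h2ac had log2 changes of -0.27 (SE 0.09, limma adjusted p = 0.0871) and -0.26 (SE 0.09, adjusted p = 0.107). Hist2h3c2 had one of -0.26 (SE 0.11, adjusted p = 0.194), and Hist1h1c one of -0.21 (SE 0.08, adjusted p = 0.134). Hist1h1c ranged from 64.7 to 84.1 RPM in TG naive and from 52.5 to 80.1 in TG crush rats, so the groups overlapped widely. Hist1h4b and Hist2h2be had values of -0.11 (SE 0.11) and 0.10 (SE 0.12). Of the 13 genes 10 had a negative and 3 a positive value, at a median of -0.11, against -0.01 over all genes tested. Over all genes tested 9783 values were negative and 8439 positive, and no test was made on the signs.

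None of the variant genes passed between TG naive and TG crush rats. Their median log2 change was -0.03, with 8 negative and 2 positive values, against 9783 and 8439 over all genes tested. H2afj had the lowest value (-0.16, SE 0.06, limma adjusted p = 0.159) and H2afz the highest (0.17, SE 0.08, adjusted p = 0.245). H3f3b ranged from 107 to 127 RPM, with a median of 119, in TG naive and from 108 to 151, with a median of 123, in TG crush rats (log2 change 0.09, SE 0.07). The macroH2A gene H2afy (-0.03, SE 0.04) and H1f0 (-0.03, SE 0.04) were close to 0. At an unadjusted p under 0.05 there were 8 histone genes of 23, 6 replication-dependent and 2 variant, and 3509 of all 18222 genes.

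**Figure D4:**
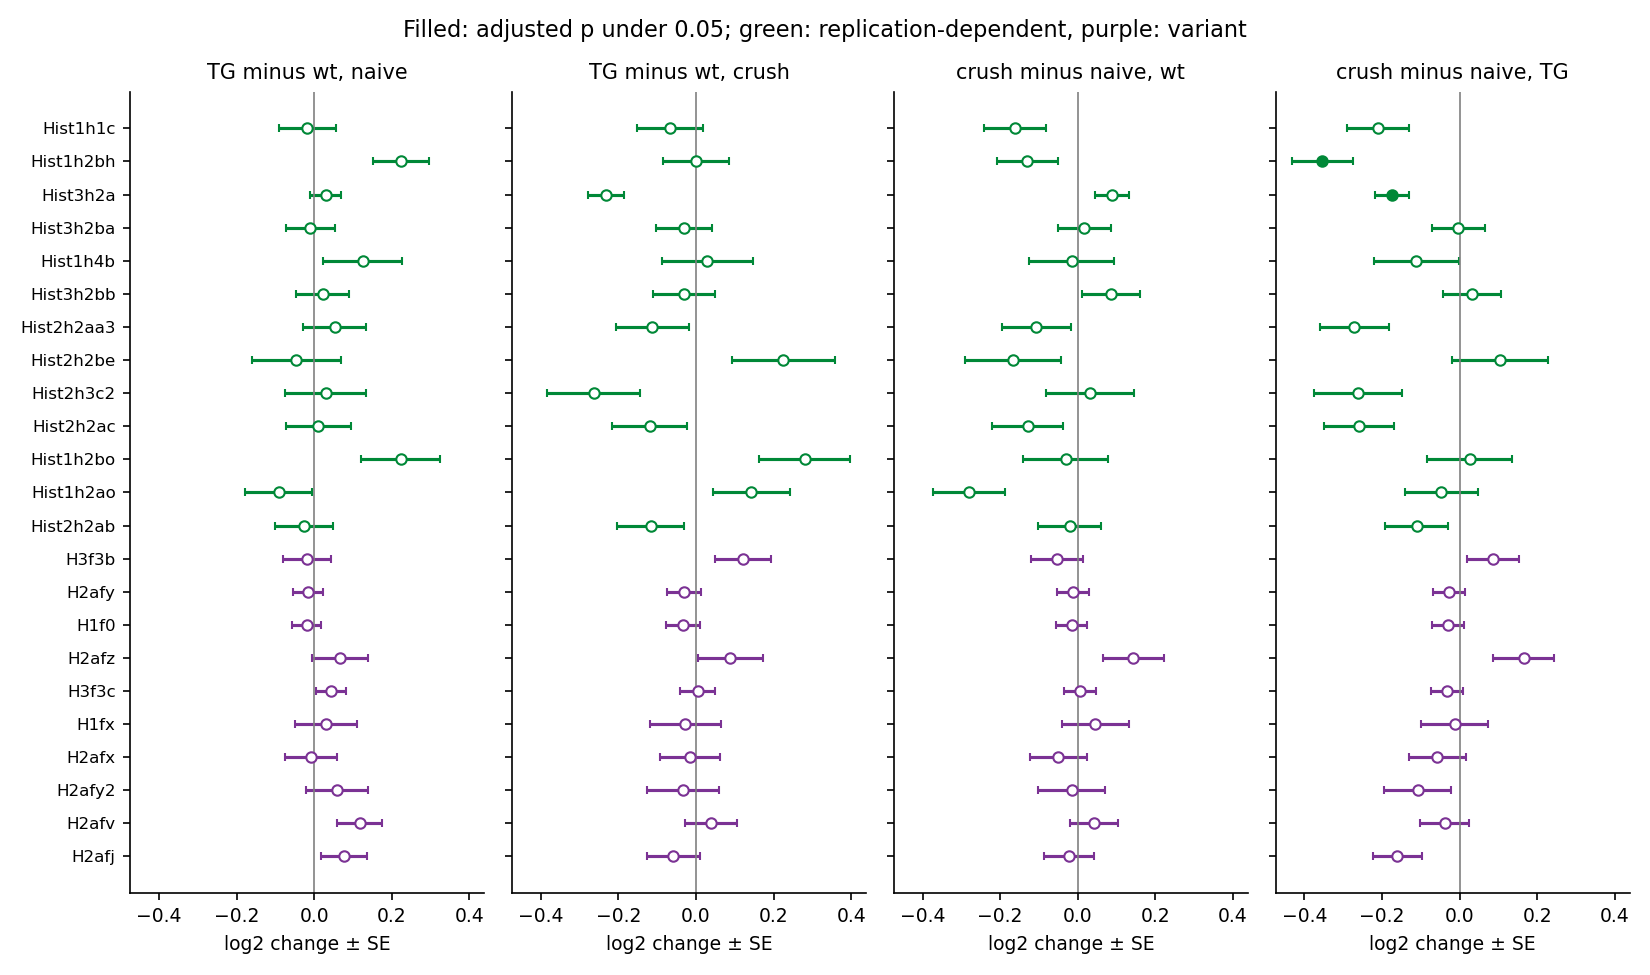
Log2 change with its standard error for the 23 histone genes tested, in the 4 pairwise comparisons; green genes are replication-dependent, purple ones variant, and filled points passed at an adjusted p under 0.05. The filled points are Hist1h2bh (-0.35) and Hist3h2a (-0.17) in crush against naive TG rats.

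As a sum, the replication-dependent genes took 148.665 to 173.218 RPM in TG naive rats (median 162) and 121.686 to 162.414 in TG crush rats (median 140). In 4 of the 6 TG crush libraries the sum lay below the lowest TG naive library, and in replicates 223 (162.414) and 226 (155.695) within the naive range. The group means were 161 ± 8.48 (SD, n = 8) and 142 ± 15.4 RPM (SD, n = 6). In wt rats they were 157 ± 8.86 (SD, n = 8) when naive and 147 ± 7.52 (SD, n = 6) after crush. The variant sum had means of 423 ± 17.5, 421 ± 8.05, 425 ± 17.2 and 431 ± 17.5 RPM in wt rats when naive and after crush and in TG rats when naive and after crush, with wide overlap. By family, the replication-dependent H2A genes together took 25.7 to 29.6 RPM in TG naive, 21.7 to 26.6 in TG crush, 25.5 to 28.8 in naive wt and 25.7 to 29.3 in injured wt rats. Hist3h2a makes up 69.6% of that sum. No test was made on the sums.

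**Figure D5:**
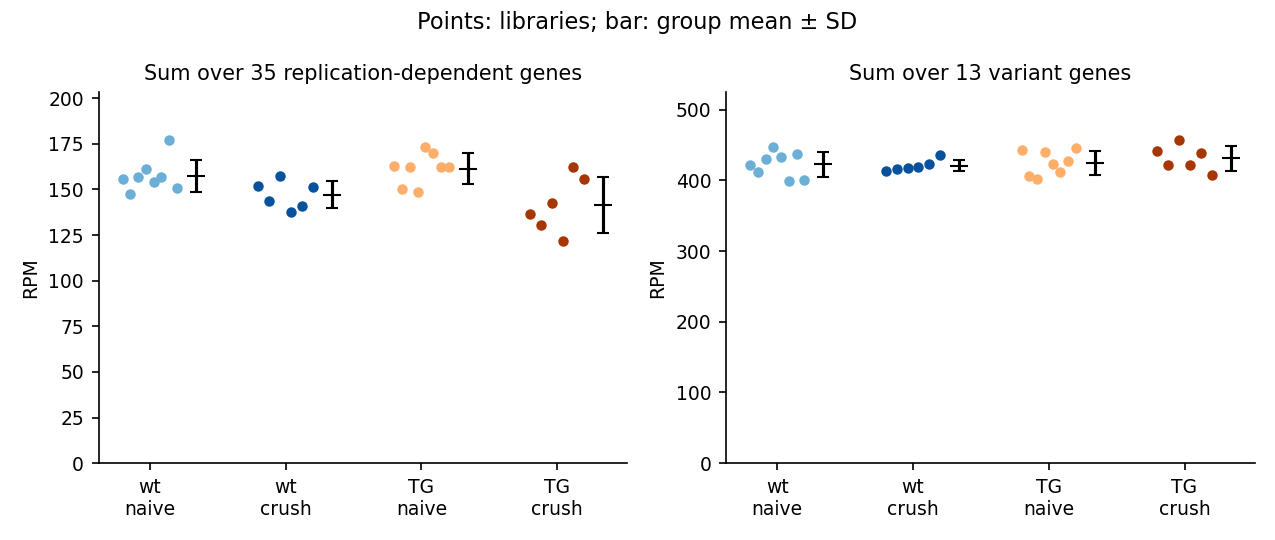
Summed RPM of the 35 replication-dependent and the 13 variant histone genes in each library (points) with group mean and SD (bars), both axes from 0. The replication-dependent sum is widest in TG crush rats (121.686 to 162.414 RPM), and the variant sum overlaps between all 4 groups.

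Genes of other cell types were compared between TG crush and TG naive rats as well. Of 9 microglial markers C1qb, a complement component, was lower (-0.36, SE 0.09, limma adjusted p = 0.0317). Of 6 endothelial markers Pecam1 (-0.37, SE 0.08, adjusted p = 0.0123) and Tek (-0.29, SE 0.08, adjusted p = 0.0374), surface receptors of vessel cells, were lower. The summed microglial level ran from 371 to 519 RPM in TG naive and from 342 to 517 in TG crush rats, and the endothelial one from 350 to 433 and from 299 to 419. Of the 13 markers of dividing cells tested none passed. Their median log2 change was -0.20, and their summed level ran from 43.2 to 87.8 and from 43.6 to 55.0 RPM. The spiny neuron markers summed to 7083 to 11962 RPM in TG naive and 6610 to 13408 in TG crush rats, the astrocyte markers to 4423 to 5202 and 3908 to 5359 RPM, and none of the 15 and 8 passed. The microglial and endothelial medians were -0.26 and -0.19. The median log2 changes furthest from 0 were those of pituitary (0.80, 4 markers) and blood (0.79, 5 markers), of which none passed. The summed blood level ran from 26.3 to 235 RPM (median 53.8) in TG naive and from 91.5 to 171 (median 102) in TG crush rats, and the pituitary one from 1.72 to 38.9 and from 2.74 to 77.2 RPM. The medians of the remaining 4 lists, for choroid plexus and ependyma, oligodendrocytes, their precursors and cortical neurons, lay between -0.19 and 0.05, with none passing. All markers of the 11 lists had reads in both groups. With the mean spiny neuron level as a covariate both histone genes passed, and the values without the libraries high in Slc17a7 are given above. The part of the other lists in the values of Hist1h2bh and Hist3h2a was not tested.

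The machinery that makes, trims and deposits histones was read from 2 lists. Of 21 genes that process replication-dependent histone mRNAs, such as the stem-loop binding protein Slbp and the cleavage factors Cpsf2 and Cpsf3, Sympk fell and the other 20 did not pass after crush in TG rats, a share of the list near the 3.08% called among all genes. Sympk, a scaffold of the cleavage complex, had a log2 change of -0.19 (SE 0.05, limma adjusted p = 0.0451). The median of the list was 0.03, opposite in sign to the gene that passed. Of 33 histone chaperones and loading factors none passed, at a median of 0.00. In the other 5 comparisons no gene of either list passed.

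After crush, Hist3h2a was the histone gene with the lowest p between TG and wt rats. It ranged from 18.5 to 20.9 RPM, with a median of 19.8, in wt crush and from 15.7 to 17.7, with a median of 17.1, in TG crush rats, and the groups did not overlap. The mean of TG crush rats was 15.2% lower, at a log2 difference of -0.23 (SE 0.05). This gene was known from an earlier analysis of the same libraries to differ here, so the values describe that difference and add no test of it. In limma its adjusted p was 0.131 on RPM, where it ranked 4 of 18222 genes, and 0.0484 on the deposited RPKM, where the difference was -0.24. Called were 0.00549% of all genes on RPM and 0.0176% of 11374 genes on RPKM. The exact permutation p was 0.00216, the smallest that 6 against 6 libraries allow. Hist3h2a was the 1 histone gene of 23 without overlap, and 0.384% of all genes tested had none. This comparison shares its TG crush libraries with that of crush against naive TG rats.

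The other histone genes did not pass between TG and wt crush rats. Hist1h2bo, a low H2B gene, had a log2 difference of 0.28 (SE 0.12, limma adjusted p = 0.606) and Hist2h3c2 one of -0.26 (SE 0.12, adjusted p = 0.609). Hist1h2bo had 14 to 34 reads per library, and the 0.5 RPM added before the log shrinks its log2 values. Its mean was 42.0% higher in TG crush than in wt crush rats. Hist3h2bb and Hist3h2ba each had one of -0.03 (adjusted p = 0.937 and 0.928), and Hist1h2bh one of 0.00 (SE 0.08). H3f3b (0.12, SE 0.07) and H2afz (0.09, SE 0.08) had the highest values among the variants. None of 23 histone genes passed by limma on RPM or by limma-voom on whole reads, and 3 had an unadjusted p under 0.05, against 1468 of all genes. The medians were -0.03 for replication-dependent, -0.02 for variant and 0.00 for all genes. Of the 11 marker lists no gene passed in this comparison. The median log2 differences furthest from 0 were those of blood (0.73), choroid plexus and ependyma (0.56), pituitary (-0.54), cortical glutamate neurons (0.52) and spiny neurons (-0.25), and those of the other 6 lists lay between -0.03 and 0.11. Their part in the values was not tested, apart from fits that held the spiny neuron level as covariate and fits without the libraries high in Slc17a7. Without the 5 libraries high in Slc17a7 the value of Hist3h2a was -0.24 (limma adjusted p = 0.235).

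In naive rats no histone gene passed between the genotypes by limma or by limma-voom. At an unadjusted limma p under 0.05 there were 2 histone genes of 23, and 907 of all 18222 genes. Of all genes 0.0329% were called. Hist1h2bh, described above, and Hist1h2bo (0.22, SE 0.10, limma adjusted p = 0.980) had the lowest p. Hist1h2bo ranged from 0.404 to 0.801 RPM in wt naive and from 0.393 to 0.995 in TG naive rats, and 4 of 8 TG libraries lay above the highest wt library. H2afv, an H2A.Z gene, followed (0.12, SE 0.06, adjusted p = 0.995). Hist3h2a had a difference of 0.03 (SE 0.04, adjusted p = 0.999; exact permutation p = 0.403). No histone gene was without overlap, against 0.0494% of all genes. The median was 0.02 for replication-dependent and 0.04 for variant genes.

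Nerve crush in wt rats likewise left no histone gene past the threshold in limma or limma-voom, where 0.159% of all genes were called. At an unadjusted limma p under 0.05 there were 2 histone genes of 23, and 3796 of all 18222 genes. Hist1h2ao, a low H2A gene with 11 to 33 reads per library, had the lowest p (-0.28, SE 0.09, limma adjusted p = 0.137). At this level the 0.5 RPM added before the log shrinks the log2 change, which ran from -0.50 to -0.12 over all alternatives. The mean of Hist1h2ao was 31.7% lower after crush. It ranged from 0.352 to 0.891 RPM in naive wt rats and from 0.336 to 0.556 after crush, which overlapped. Hist1h1c followed (-0.16, SE 0.08, adjusted p = 0.240): it ranged from 66.1 to 90.1 RPM, with a median of 73.6, in naive wt rats and from 59.5 to 71.8, with a median of 68.1, after crush. None of the 23 genes separated the groups, against 0.648% of all genes here and 0.73% in TG rats, where none of the 23 did so either. The median was -0.03 for replication-dependent, -0.01 for variant and -0.03 for all genes.

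Over both arms, no histone gene passed between TG and wt rats by limma or limma-voom, where 0.0384% of all genes were called. At an unadjusted limma p under 0.05 there were 2 histone genes of 23, and 927 of all 18222 genes. Hist3h2a (-0.10, SE 0.03, limma adjusted p = 0.812), Hist1h2bo (0.25, SE 0.08, adjusted p = 0.812) and Hist1h2bh (0.11, SE 0.06, adjusted p = 0.956) had the lowest p. Hist1h2bo had a positive value in both arms, 0.22 and 0.28. No histone gene passed for the difference between the crush effects in TG and wt rats by limma or limma-voom, where 0.00549% of all genes were called. At an unadjusted limma p under 0.05 there was 1 histone gene of 23, and 1364 of all 18222 genes. Next to Hist3h2a and Hist1h2bh, given above, came Hist2h3c2 (-0.29, SE 0.16, adjusted p = 0.672). Of the 13 replication-dependent genes 10 had a negative and 3 a positive value in this difference, and of the 10 variant genes 8 and 2. Over all genes tested 8464 values were negative and 9758 positive. The medians were -0.09 for replication-dependent, -0.03 for variant and 0.01 for all genes. The difference uses the same TG libraries as crush against naive TG rats, and no test was made on the signs.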

How the data were processed

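Per the labels' protocols, libraries from a stranded mRNA kit were sequenced over 2 runs (single-end, 75 nt). STAR 2.6.1a, featureCounts of Subread 1.6.3, DESeq2 1.22.2 and Rnor_6.0 are named per the submitters' processing notes. The sources used here give neither the strand setting nor the treatment of reads with several matches. The deposited table holds RPKM values (decimal commas, recorded as an other unit), whose length is the whole gene span in 100% of rows. RPM was computed as RPKM times length in kilobases, which the authors' RPKM made a sum of 1000000 per library. Whole reads were recovered within 0.02 for 100% of values. No sample column was left unused.

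Genes of at least 0.5 RPM in at least 6 libraries were fitted with limma 3.58.1 (R 4.3.3) on log2 (RPM + 0.5), all 28 libraries in 1 fit of 4 groups with variances that follow the mean. The fit was tested on simulated data with known changes. The members and lists were chosen with earlier results of these data known. Named are members that passed on either scale, the Hist3 genes, the 10 most abundant of each class, the 3 of lowest p per comparison and called list genes. The germline genes, the other low H1 genes, genes without reads and rows outside the rule were added after their values were seen. The alternatives were pseudocounts of 0.1 and 2, no filter, a filter of 1 RPM in 14 libraries, RPKM, median-of-ratios rescaling, compared groups alone, array weights, limma-voom, libraries left out and a spiny neuron covariate. Python 3.11.15 with matplotlib 3.10.9 drew the plots.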

Additional observations from a re-analysis of the deposited data

Results flagged for a closer look

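In groups of 6 or 8 libraries, 1 library stood far from the rest of its group in 3 of the 92 groups examined (23 histone genes in 4 groups). Chance flags about 1 in 20 groups, or 4.6 here. Hist1h1c in wt naive replicate 201 was at 90.1 RPM, above the next library at 77.2. Hist3h2ba in wt crush replicate 210 was at 13.4 RPM, above the next at 12.3. Hist1h4b in TG naive replicate 191 was at 8.08 RPM, above the next at 6.60.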

How the results depend on the processing

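Over 33 results and 1053 alternative values, 1028 were rated the same, and no log2 change reversed its sign. For a log2 change the rating meant the same direction and side of the threshold. For a count of called genes it meant a like count, and for a class sum a group mean within the SD of the main value. Leaving out a single library cannot move a mean that far, so for the sums those alternatives could not differ. In crush against naive TG rats the 2 histone genes called became 1 with median-of-ratios rescaling (Hist1h2bh), 0 with the compared groups alone, 0 without the libraries over 20 RPM of Slc17a7, 5 with array weights (Hist1h1c, Hist1h2bh, Hist2h2aa3, Hist2h2ac and Hist3h2a) and 1 to 4 with a library left out in turn (4 without TG naive replicate 187 or TG crush replicate 226; 1 without TG naive replicate 189, TG crush replicate 219 or TG crush replicate 222). Hist3h2a lost its call there with median-of-ratios rescaling (-0.16, limma adjusted p = 0.0562), with the compared groups alone (-0.17, adjusted p = 0.123) and without the libraries high in Slc17a7 (-0.19, adjusted p = 0.0525). It was also lost when TG crush replicate 223 was left out with them (-0.20, adjusted p = 0.0579). That setting was chosen after seeing the data, and Hist1h1c and Hist1h2bh were then the 2 genes called. With a single library left out in turn, Hist3h2a lost its call in 3 of 28 fits. Over these 28 fits its value ran from -0.19 to -0.16 (limma adjusted p = 0.0162 to 0.0851). Over all alternatives of Hist3h2a the adjusted p ran from 0.0137 to 0.123, and for Hist1h2bh from 0.00191 to 0.0801. Between TG and wt crush rats 1 histone gene, Hist3h2a, passed on the RPKM scale (-0.24, adjusted p = 0.0484; 0.0484 to 0.409 over all alternatives), and in crush against naive wt rats 1, Hist1h2ao, with array weights (adjusted p = 0.0199). The cause of these changes was not tested.

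Over all genes, crush against naive TG rats gave 197 higher and 365 lower calls, but 273 and 307 with median-of-ratios rescaling, 138 and 233 without a filter, 41 and 82 with the compared groups alone, 66 and 115 without the libraries high in Slc17a7, 108 and 159 also without TG crush replicate 223, 666 and 1087 with array weights, 429 and 879 with the covariate, and 75 to 484 higher and 145 to 734 lower with a library left out. In wt rats 7 higher and 22 lower calls became 526 and 910 with array weights, 17 and 28 with the compared groups alone, 3 and 7 with the covariate, 6 and 13 without a filter and 5 and 10 without the libraries high in Slc17a7. With a library left out they ran from 5 to 114 higher and from 7 to 397 lower, the most without wt naive replicate 196 and the fewest without wt naive replicate 197 or 201 or wt crush replicate 210. No rescaling moved the median of all genes by over 0.1. Of the 25 histone genes that did not pass the filter 8 had no read, and differences in the others were not tested in the fit with the filter. No paired analysis was possible because no replicate number is shared between groups.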
